A study of Mus musculus with 16 samples.

Results

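The miR-199 and miR-214 group consists of the mature arms of the miR-199a, miR-199b and miR-214 hairpins. It was taken from a table of small RNA read counts by name: every name that starts with miR-199a-, miR-199b- or miR-214-, whichever arm. This gave 6 names of the 1372 kept in the table. miR-199a-3p and miR-199b-3p carried the same count in every library, so the 6 names hold 5 separate sets of counts. The counts came from bone marrow cells of male C57BL/6 mice that were cultured into dendritic cells, in 16 libraries, 4 in each of 4 groups, with libraries numbered by mouse from 1 to 4. Control cells (CTRL) received no stimulation. The LPS cells were given 1 µg/mL of lipopolysaccharide (from the outer membrane of bacteria, sensed by TLR4) for 6 h on day 8. The quercetin cells (Q) were given 25 µM of aglycone quercetin (a flavonol of plants, here without its sugar) on day 5 and again on day 7. The quercetin plus LPS cells (Q_LPS) received both, quercetin first. The mice were wild type and, per the labels, 8 weeks old, with mouse 4 at 7 weeks. Red cells were lysed before culture in all groups, and the labels name no sorting of the cultured cells, so each library may hold every cell type of its dish.

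These hairpins are known from mesenchymal cells. Mir199a-2 and Mir214 lie in a shared non-coding transcript, Dnm3os, which is made in fibroblasts and other connective tissue cells and is induced in fibrosis, and both hairpins are cut from it. Mir199a-1 and Mir199b lie at other loci. A miRNA finds its targets mainly through its seed, bases 2 to 8 of the mature strand. miR-199a-5p is described as promoting fibroblast activation, and miR-214-3p as raised in fibrotic tissue.

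Of the 6 names, 5 matched a mature sequence in RefSeq (GRCm38.p6), and miR-199b-5p did not. The sequences below, written 5′ to 3′ with the seed in capitals, show which members share a seed.
miR-199a-5p: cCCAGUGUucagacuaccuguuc
miR-199a-3p and miR-199b-3p: aCAGUAGUcugcacauugguua
miR-214-5p: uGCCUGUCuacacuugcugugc
miR-214-3p: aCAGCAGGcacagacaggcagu
The seed of miR-199-3p was found in no mature miRNA of the RefSeq table outside these members, nor was that of miR-199a-5p or miR-214-5p. The seed of miR-214-3p is shared with miR-761, which has no row among the counts used here.

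The 3 miR-199 hairpins show why reads of the 3p arm have no single origin. Each holds the same 22 bases of miR-199-3p, in capitals here.
Mir199a-1 (GRCm38.p6, chr9:21496495-21496564, minus strand): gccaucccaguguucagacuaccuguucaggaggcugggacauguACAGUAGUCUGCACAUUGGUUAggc
Mir199a-2 (GRCm38.p6, chr1:162217814-162217923, plus strand): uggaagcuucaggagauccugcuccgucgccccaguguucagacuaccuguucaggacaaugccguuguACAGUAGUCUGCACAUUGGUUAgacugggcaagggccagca
Mir199b (GRCm38.p6, chr2:32318460-32318569, plus strand): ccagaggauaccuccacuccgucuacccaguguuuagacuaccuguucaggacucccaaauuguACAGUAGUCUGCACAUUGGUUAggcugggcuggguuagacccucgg
The stretch of the Mir199b hairpin that matches miR-199a-5p differs from it by 1 base, C10U, with positions counted from 1 at the 5′ end of miR-199a-5p, outside the seed. miR-199a-5p itself is the same in Mir199a-1 and Mir199a-2. The 5p counts can therefore separate miR-199b from miR-199a as far as the authors' mapping tells 1 base apart, and cannot separate Mir199a-1 from Mir199a-2. The Mir214 hairpin starts 5444 bases beyond the end of Mir199a-2, and both lie inside Dnm3os.

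The libraries held from 6459654 to 13949915 counts, with 3 counts (the limit that a count of 0 allows) at 0.232 CPM in control 1. Depth differed between the groups compared. Controls held 8668513 to 12535228 counts and quercetin libraries 7698774 to 8572734, all below the controls. LPS libraries held 10105690 to 13949915 counts and quercetin plus LPS libraries 6459654 to 9041030, all below the LPS libraries. The 8 miRNAs listed for blood cells and myeloid cells summed to 314050 to 439850 CPM (the usual depth-scaled unit of read counts, here with TMM scaling). They were miR-142a-3p, miR-142a-5p, miR-223-3p, miR-155-5p, miR-146a-5p, miR-511-3p, miR-21a-5p and miR-22-3p. Of these, miR-21a-5p is also on the fibrosis-linked list used below, so the sum is not a measure of dendritic cells alone. For miR-199a-3p and miR-199a-5p, the libraries of mouse 2 with quercetin, with and without LPS, and the library of control 3 were the highest of their groups, and likewise for miR-214-3p. Values without them are given beside the main results. The libraries are whole cultures, so fewer cells of a type and less RNA per cell cannot be told apart.

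miR-199a-3p, whose counts miR-199b-3p repeats, was the main product of the group: its 5034 counts over all libraries were 87.1% of the counts of the members, with the pair counted once. It averaged 35.1 CPM over the 16 libraries. In control cells it was at 7.27, 19.2, 87.9 and 33.3 CPM in mice 1 to 4. After LPS it was at 7.75, 7.79, 9.04 and 12.5 CPM. The 4 LPS libraries lay close together, while the controls spread over 12.1-fold, and control 1 was as low as the LPS libraries.

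With quercetin alone, miR-199a-3p was at 24.2, 80.0, 25.1 and 42.7 CPM in mice 1 to 4. With quercetin plus LPS it was at 27.5, 121, 28.1 and 28.1 CPM. Mouse 2 was the highest in both groups, at 4.41 times the lowest library in quercetin plus LPS. Every library with quercetin lay above every LPS library and within or above the range of the controls. By group mean the order was LPS (9.28 ± 2.25 CPM, SD, n = 4), control (36.9 ± 35.6), quercetin (43.0 ± 26.1) and quercetin plus LPS (51.2 ± 46.6). No neighbours in that order passed after adjustment over all miRNAs tested (edgeR, adjusted p = 0.42, 0.862 and 0.902). Before adjustment the p of edgeR was 0.00886, 0.732 and 0.699.

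**Figure D1:**
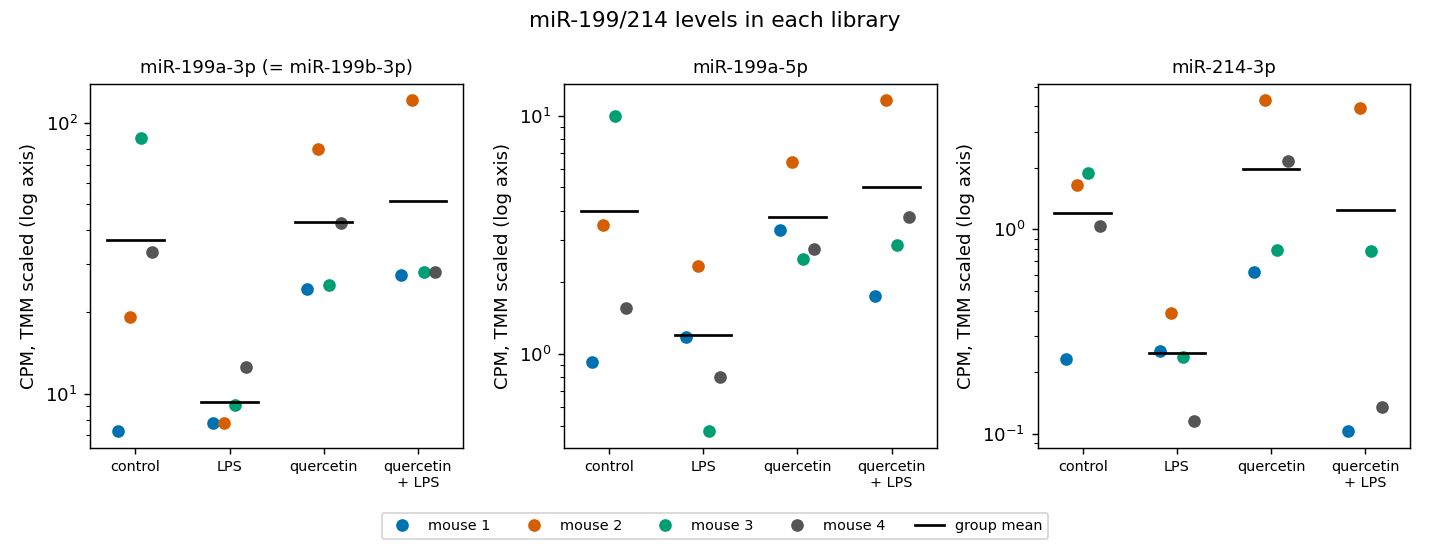
Levels of miR-199a-3p, miR-199a-5p and miR-214-3p in each library, in CPM with TMM scaling on a log axis, by group, with points coloured by mouse and a black line at the group mean (n = 4). For miR-199a-3p the LPS libraries sit between 7.75 and 12.5 CPM and all quercetin plus LPS libraries at or above 27.5 CPM.

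The comparison of quercetin plus LPS with LPS asked what quercetin does in cells that are then stimulated. miR-199a-3p was higher with quercetin, at 51.2 against 9.28 CPM on average, and the groups did not overlap (lowest 27.5, highest 12.5 CPM). The log2 fold change was 2.46 ± 0.68 (SE, edgeR quasi-likelihood test, adjusted p = 0.017), with a rise in 4 of 4 mice. Across all miRNAs, 22.9% of 568 were called in this comparison, 8.63% as higher and 14.3% as lower. The groups did not overlap for 20.2%, with quercetin plus LPS the higher for 6.87%. The median log2 fold change of all miRNAs was -0.13. The call was kept without any single library (adjusted p from 0.0111 to 0.0497). Without the quercetin and quercetin plus LPS libraries of mouse 2 the log2 fold change was 1.74 (adjusted p = 0.0564), and without mouse 2 altogether 1.53 (adjusted p = 0.153). In the other 3 mice the levels were 27.5 to 28.1 against 7.75 to 12.5 CPM. The share of all miRNAs whose levels do not overlap in those mice was not counted.

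miR-199a-5p, the other arm of the miR-199a hairpins, was lower than the 3p arm in all 16 libraries. It was at 0.928, 3.49, 9.92 and 1.56 CPM in control mice 1 to 4 and at 1.18, 2.34, 0.476 and 0.804 CPM after LPS. It was at 3.32, 6.38, 2.497 and 2.76 CPM with quercetin and at 1.75, 11.6, 2.86 and 3.77 CPM with quercetin plus LPS. As for the 3p arm, control 3 was the highest of its group and mouse 2 the highest with quercetin, here with the LPS and quercetin plus LPS ranges overlapping. In quercetin plus LPS against LPS it was higher in 4 of 4 mice, with a log2 fold change of 2.05 ± 0.74 that did not pass (edgeR, adjusted p = 0.0523). With the mouse as a block it passed (1.89, adjusted p = 0.0475, edgeR), as it did under RLE, upper quartile and library size scaling (2.19 to 2.41, adjusted p from 0.026 to 0.0434), by DESeq2 (2.20, adjusted p = 0.0102) and in a few settings named in the closing part. Without the quercetin and quercetin plus LPS libraries of mouse 2 it was at 1.36 (edgeR, adjusted p = 0.205). Group means were 1.20 ± 0.81 CPM after LPS, 3.74 ± 1.80 with quercetin, 3.97 ± 4.11 without treatment and 5.00 ± 4.49 with quercetin plus LPS (SD, n = 4).

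miR-214-3p, made from the same transcript as Mir199a-2, rested on few reads. Its counts in mice 1 to 4 were 3, 16, 15 and 12 in controls and 3, 4, 3 and 1 after LPS. They were 5, 41, 7 and 18 with quercetin and 1, 34, 6 and 1 with quercetin plus LPS. The LPS libraries thus lay at or near the limit that 3 counts set, as did 2 of the quercetin plus LPS libraries. Mouse 2 was the highest in both quercetin groups, at 4.29 and 3.95 CPM. In quercetin plus LPS against LPS the log2 fold change was 2.25 ± 1.01 and did not pass (edgeR, adjusted p = 0.117), and it was 0.55 without quercetin plus LPS 2. It was higher in 3 of 4 mice and lower in mouse 1. In mouse 4 the difference was only 0.085 on the log2 scale, with 1 count in each library compared. Of the 3 tested members with counts of their own, 1 was called in this comparison by edgeR, 3 by DESeq2 and 1 by limma-voom, where DESeq2 called 27.8% and limma-voom 25.4% of all miRNAs.

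The arms miR-199b-5p and miR-214-5p, the rarer products, were too low for the filter on low counts. miR-199b-5p had 4, 0, 7 and 3 counts in controls, 1, 0, 1 and 0 after LPS, 4, 1, 0 and 2 with quercetin and 5, 8, 6 and 1 with quercetin plus LPS. Summed over the group, 20 counts in 31343198 with quercetin plus LPS stood against 2 in 48913443 with LPS, a ratio of 15.6 (exact 95% interval 3.79 to 138, counting error only). It passed edgeR's test when no filter was used (log2 fold change 3.48 ± 1.03, adjusted p = 0.0336 over 1372 names). In LPS against control the ratio was 0.124 (2 against 14 counts, interval 0.0137 to 0.54), and with no filter this did not pass (edgeR, adjusted p = 0.839). miR-199b-5p, the arm that names Mir199b, held 0.744% of the counts of the members, against 8.54% for miR-199a-5p.

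miR-214-5p had 2, 1, 4 and 7 counts in controls, 0, 1, 0 and 1 after LPS, 1, 9, 2 and 3 with quercetin and 1, 8, 1 and 0 with quercetin plus LPS. Its highest libraries were again those of mouse 2 with quercetin. Against LPS, the ratio with quercetin plus LPS was 7.80 (10 against 2 counts, exact 95% interval 1.66 to 73.2, counting error only). With no filter it did not pass (edgeR, log2 fold change 2.46 ± 1.14, adjusted p = 0.232). In quercetin against control the ratio was 1.40 (15 against 14 counts, interval 0.629 to 3.13), so at this depth no difference was detectable.

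The comparison of LPS with control asked what LPS alone does. The tested members lay lower after LPS in 3 of 4 mice each, with mouse 1 the exception. The log2 fold change was -1.99 ± 0.67 for miR-199a-3p (edgeR, adjusted p = 0.42), -1.70 ± 0.74 for miR-199a-5p (adjusted p = 0.944) and -2.16 ± 1.01 for miR-214-3p (adjusted p = 0.965). By edgeR, DESeq2 and limma-voom 0 of 3 were called, while an unadjusted p under 0.05 was reached by 3 with edgeR, 3 with DESeq2 and 1 with limma-voom. Across all miRNAs 0.528% were called by edgeR, none of them as lower, 1.06% by DESeq2 and 0.528% by limma-voom, and 26 of 568 had an unadjusted p under 0.05 by edgeR. The groups overlapped for all 3 members, and did not for 3.17% of all miRNAs. Without control 3 the log2 fold change of miR-199a-3p was -1.18 (edgeR, adjusted p = 0.998, over 0.132 to 0.998 without 1 library), and that of miR-199a-5p was -0.75 (adjusted p = 0.998, over 0.39 to 1 without 1 library).

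The comparison of quercetin with control asked what quercetin does without LPS. The log2 fold change was 0.22 ± 0.64 for miR-199a-3p (edgeR, adjusted p = 0.862), -0.05 ± 0.69 for miR-199a-5p (adjusted p = 0.966) and 0.76 ± 0.84 for miR-214-3p (adjusted p = 0.605). Each was higher with quercetin in 3 of 4 mice, and lower in mouse 3, whose control held the highest levels. None of the 3 was called or had an unadjusted p under 0.05 by edgeR, DESeq2 or limma-voom, against 15.8% of all miRNAs called by edgeR (6.87% higher, 8.98% lower), 18.1% by DESeq2 and 14.8% by limma-voom. The groups overlapped for all 3, and did not for 21.5% of all miRNAs. Without control 3, miR-199a-3p was at 1.13, and without quercetin 2 at -0.25, so its direction changed with 1 library.

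LPS given after quercetin was compared with quercetin alone. miR-199a-3p differed by 0.25 ± 0.64 (edgeR, adjusted p = 0.902), miR-199a-5p by 0.41 ± 0.69 (adjusted p = 0.862) and miR-214-3p by -0.66 ± 0.85 (adjusted p = 0.826), and miR-214-3p was lower in 4 of 4 mice. Its log2 differences in mice 1 to 4 were -1.405, -0.114, -0.019 and -2.79, with 1 count each in quercetin plus LPS 1 and 4. None of the 3 was called or had an unadjusted p under 0.05 by any of the 3 tools, against 0.352% of all miRNAs called by edgeR and by limma-voom and 0.704% by DESeq2. The groups overlapped for all 3, and did not for 3.7% of all miRNAs. Without quercetin plus LPS 2, miR-214-3p was at -2.45 and without quercetin 2 at 0.24 (edgeR, adjusted p = 0.592 and 0.944, over 0.592 to 0.992 without 1 library).

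Whether LPS acts differently with and without quercetin was asked with the interaction term. It was 2.24 ± 0.92 for miR-199a-3p (edgeR, adjusted p = 0.889), 2.11 ± 1.01 for miR-199a-5p (adjusted p = 0.893) and 1.495 ± 1.31 for miR-214-3p (adjusted p = 0.905). Of the 3, none passed by edgeR, DESeq2 or limma-voom, and 1, 2 and 0 had an unadjusted p under 0.05. By edgeR 0 of all 568 miRNAs passed by edgeR, with 26 at an unadjusted p under 0.05 (29 by DESeq2 and 20 by limma-voom).

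The 2 comparisons with quercetin share no libraries, and their average uses all 16. Averaged over both LPS states, miR-199a-3p was higher with quercetin by 1.34 ± 0.46 on the log2 scale (edgeR, adjusted p = 0.0318). Of all miRNAs 36.3% were called in this average, 16.2% as higher and 20.1% as lower. The call was lost without quercetin 2 (1.19, adjusted p = 0.0633) or quercetin plus LPS 2 (1.04, adjusted p = 0.0624), within a range of 0.00341 to 0.0633 without 1 library. miR-214-3p was at 1.504 ± 0.66 (adjusted p = 0.0868) and miR-199a-5p at 1.00 ± 0.50 (adjusted p = 0.133). Without quercetin plus LPS 2, miR-214-3p was at 0.68 (edgeR, adjusted p = 0.44), and it passed without quercetin 1 (1.77, adjusted p = 0.0499) or quercetin plus LPS 1 or 4 (1.81, adjusted p = 0.0337). miR-199a-5p passed without control 3 (1.61, adjusted p = 0.0132). Without the libraries of mouse 2 with quercetin and with quercetin plus LPS, miR-214-3p was at 0.26 and miR-199a-5p at 0.45. DESeq2 called 2 of the 3 members and limma-voom 1, where they called 37.7% and 36.3% of all miRNAs.

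**Figure D2:**
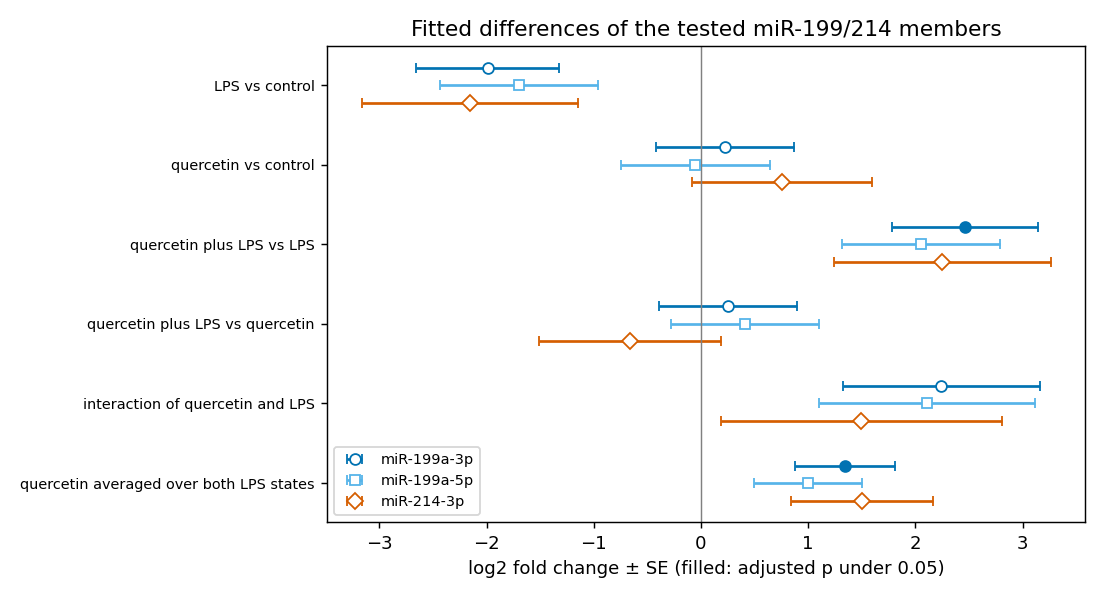
Log2 fold changes with standard errors (horizontal axis) of miR-199a-3p, miR-199a-5p and miR-214-3p in each comparison, with filled symbols where the adjusted p of edgeR is under 0.05. Only miR-199a-3p is filled, at 2.46 in quercetin plus LPS against LPS and at 1.34 in the average of quercetin over both LPS states.

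As a share of all counts, with the identical pair counted once, the members held 41.2 ± 36.8 ppm in control and 9.60 ± 1.79 ppm in LPS cells (SD, n = 4). With quercetin they held 53.3 ± 33.9 ppm, and with quercetin plus LPS 63.7 ± 60.5 ppm. The LPS libraries (7.81 to 11.7 ppm) lay below all quercetin plus LPS libraries (29.5 to 154 ppm). This gave the smallest p that 4 against 4 libraries allow, 0.0286 (exact two-sided permutation test), and 0.114 after Benjamini-Hochberg adjustment over 4 comparisons. Libraries were permuted without regard to mouse, here and for the ratios of arms below. The log2 difference was 2.37, and 1.81 without quercetin plus LPS 2. For LPS against control the exact permutation p was 0.0857 (adjusted 0.171).

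The 3p arm was the more abundant by group mean for both miR-199a and miR-214. The miR-199a-3p counts can also hold products of Mir199b, whose 5p arm has a name of its own. The miR-199a ratio is therefore not that of a single hairpin. The log2 ratio of miR-199a-3p to miR-199a-5p was 3.22 ± 0.83 in control and 3.10 ± 1.12 in LPS cells, and 3.43 ± 0.46 with quercetin and 3.36 ± 0.44 with quercetin plus LPS (SD, n = 4, with 0.5 added to each count). For miR-214 the ratio of 3p to 5p was 1.62 ± 1.35, 1.80 ± 1.33, 2.00 ± 0.35 and 1.43 ± 0.98 in the same order, on far fewer counts. In no comparison did either ratio differ beyond the spread between libraries: over 8 exact two-sided permutation tests the smallest p was 0.371 and every adjusted p was 0.914.

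The members varied more within groups than most miRNAs. The within-group SD of log2 CPM was 1.01 for miR-199a-3p, 1.01 for miR-199a-5p and 1.17 for miR-214-3p, against a median of 0.47 over the 568 tested, which places them at percentiles 91.8, 92.1 and 96.1. They also varied together. Over the 16 libraries, Pearson's r of log2 CPM was 0.85 between the 2 arms of miR-199a, 0.78 between miR-199a-3p and miR-214-3p and 0.76 between miR-199a-5p and miR-214-3p. With group means removed, r was 0.75, 0.79 and 0.74. Without control 3 and both libraries of mouse 2 with quercetin, the 3 correlations were 0.64, 0.52 and 0.51 over 13 libraries, and with group means removed 0.16, 0.55 and 0.50. The within-group SDs were then 0.61, 0.65 and 0.84, at percentiles 68, 72.4 and 86.3. These are descriptions over libraries that share mice and groups and, for low counts, depth.

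Among 309 miRNAs outside the group with a mean of at least 10 CPM, the pattern most like that of miR-199a-3p belonged to miR-143-3p, which is made from another locus and is abundant in fibroblasts and smooth muscle. Pearson's r of log2 CPM was 0.87 and Spearman's rho 0.93 over 16 libraries, and r was 0.84 with group means removed and 0.80 over the 12 libraries without mouse 2. miR-143-3p was at 15.6, 84.2, 349 and 110 CPM in control mice 1 to 4 and at 37.8, 32.7, 22.7 and 64.2 CPM after LPS. It was at 54.1, 479, 67.3 and 1186 CPM with quercetin and at 65.3, 4316, 202 and 471 CPM with quercetin plus LPS. Control 1 was the lowest and quercetin plus LPS 2 the highest of the 16 libraries for both miRNAs.

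**Figure D3:**
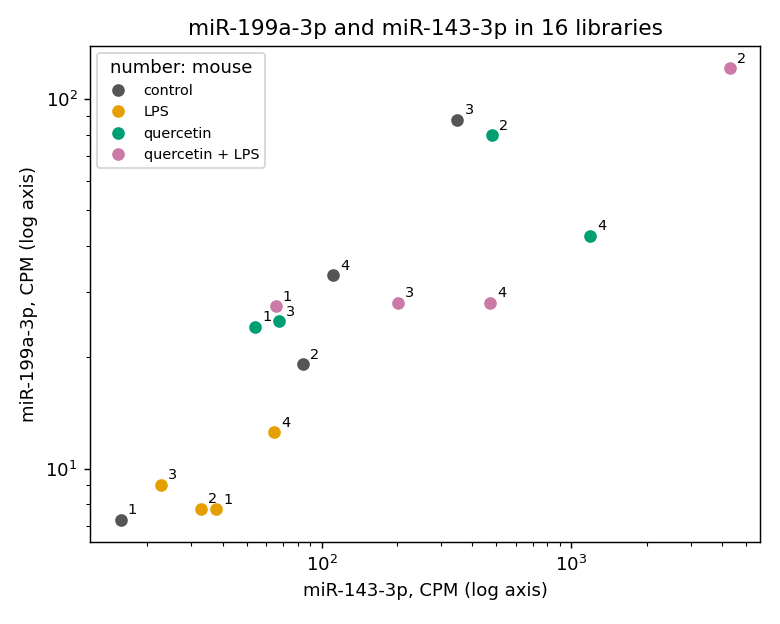
Levels of miR-199a-3p against miR-143-3p in the 16 libraries, in CPM on log axes, coloured by group and numbered by mouse. Control 1 (7.27 and 15.6 CPM) lies at the lower left and quercetin plus LPS 2 (121 and 4316 CPM) at the upper right.

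The next in order of likeness were miR-1843a-3p (r = 0.70), miR-107-3p (0.64), miR-872-3p (0.61), miR-103-3p (0.61), let-7c-5p (0.60), miR-320-3p (0.59) and miR-29a-5p (0.59). The step from miR-143-3p to these was larger than the steps among them. Of these 7, let-7c-5p and miR-29a-5p passed in quercetin plus LPS against LPS, at 0.99 ± 0.27 and 1.61 ± 0.38 (edgeR, adjusted p = 0.0159 and 0.00758). Both passed without the quercetin libraries of mouse 2 (1.25 and 1.63, edgeR, adjusted p = 0.013 and 0.0216). Without mouse 2 altogether they were at 1.09 and 1.34 (adjusted p = 0.0643 and 0.0695).

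**Figure D4:**
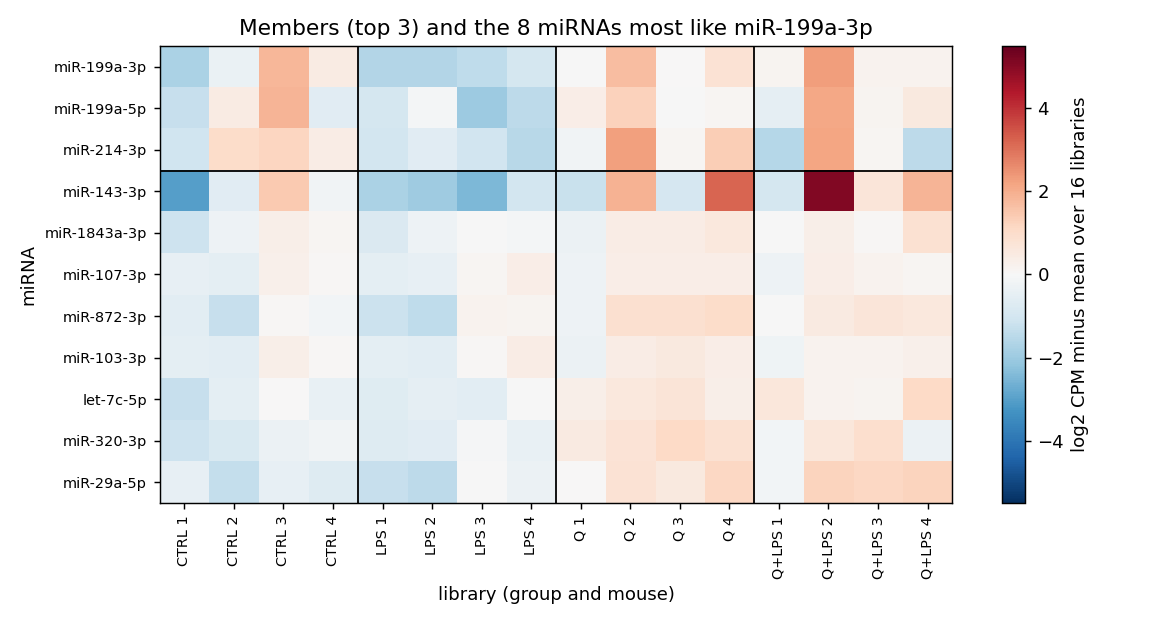
Log2 CPM minus the mean over the 16 libraries for 3 members (top) and the 8 miRNAs with the highest Pearson correlation with miR-199a-3p, by library. Red is above and blue below the mean of each miRNA. All LPS values of the members are below their means, the nearest being miR-199a-5p in LPS 2 at -0.10, and the columns of mouse 2 with quercetin are red.

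Other mesenchymal markers were read beside the members. Of 13 listed, 10 were tested, and in quercetin plus LPS against LPS 4 rose and none fell by edgeR: miR-143-3p (5.00 ± 1.34, adjusted p = 0.0147), its cluster partners miR-145a-5p (4.14 ± 1.08) and miR-145a-3p (2.78 ± 0.61), and miR-100-5p (1.37 ± 0.44). Over all miRNAs, 8.63% were called as higher and 14.3% as lower in this comparison. Without the quercetin and quercetin plus LPS libraries of mouse 2, 2 of 10 rose (miR-100-5p and miR-145a-3p), and without mouse 2 altogether 0 of 10 by edgeR, with 4 at an unadjusted p under 0.05. miR-143-3p was then at 2.78 and 2.59 (adjusted p = 0.0863 and 0.212). The log2 fold changes of miR-100-5p (1.73, adjusted p = 0.0587) and miR-145a-3p (2.45, adjusted p = 0.0527) without mouse 2 stayed near those over all mice. With the mouse as a block, 3 of 10 rose and miR-143-3p did not pass (3.57, adjusted p = 0.0577, edgeR). The median log2 fold change of the list was 0.51, against -0.13 over all miRNAs tested. The most abundant of the list, miR-140-3p, miR-10b-5p, miR-125b-5p and miR-140-5p, did not pass. miR-145a-5p was highest in quercetin plus LPS 2, at 15.1 CPM, against 1.03 to 1.61 CPM in the other 3 libraries of that group.

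The summed level of the mesenchymal list, most of it miR-140-3p, ran from 4162 to 5712 CPM without treatment and from 4783 to 5271 CPM after LPS. It ran from 5662 to 7394 CPM with quercetin and from 4766 to 9630 CPM with quercetin plus LPS. Of its members, miR-143-5p was at 0 in all LPS libraries and miR-145b in all controls. Averaged over both LPS states, by edgeR 5 of the 10 rose with quercetin (the 4 above and miR-10b-5p, at 0.98) and 1 fell (miR-99a-5p, at -0.97, which did not pass under RLE, upper quartile or library size scaling or by limma-voom). Over all miRNAs, 16.2% were called as higher and 20.1% as lower in this average. With the mouse as a block, miR-143-3p did not pass in this average (2.32, adjusted p = 0.0592, edgeR), and without mouse 2 the list held 2 rises, miR-100-5p and miR-10b-5p. The part that a change in such cells has in the rise of miR-199a-3p was not tested.

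Markers of some other cells also moved with quercetin. The 2 lymphocyte and the 8 blood cell and myeloid miRNAs held 0 calls in the main edgeR fit for either comparison with quercetin or their average. Of the latter, miR-511-3p passed in a few other settings, such as the average with upper quartile scaling. Over all miRNAs, 8.63% were called as higher in quercetin plus LPS against LPS, 6.87% in quercetin against control and 16.2% in the average. The 5 erythroid miRNAs, of which miR-486a-5p and miR-486b-5p are identical copies, all rose in quercetin plus LPS against LPS by edgeR, and 4 of 5 without mouse 2. All 5 also rose in quercetin against control (median log2 fold change 2.56), where 0 of 3 members passed (edgeR, none with an unadjusted p under 0.05). The erythroid sum ran from 775 to 1769 CPM in control and from 5041 to 13116 CPM in quercetin libraries, not overlapping. It ran from 865 to 2797 CPM in LPS and from 2343 to 5842 CPM in quercetin plus LPS libraries, overlapping. Of the 5, 0 were at 0 in any group. Of 7 epithelial miRNAs 1 rose, miR-203-3p (2.03), with sums of 241 to 300 and 273 to 628 CPM. miR-205-5p joined it without mouse 2 (2.12, edgeR, adjusted p = 0.0396) and without the quercetin libraries of mouse 2 (1.93, adjusted p = 0.0431). Averaged over both LPS states, miR-203-3p and miR-205-5p passed by edgeR. Of 2 endothelial miRNAs tested 0 passed or had an unadjusted p under 0.05 by edgeR, DESeq2 or limma-voom, and the 3 in the table summed to 28.0 to 57.7 and 27.9 to 73.5 CPM. Of 3 miRNAs of muscle, liver and nerve tested, 1 rose by edgeR, miR-133a-3p of muscle (2.18), with a list median of 1.33 and sums of 1504 to 2233 and 1730 to 3618 CPM. miR-122-5p of liver was at 1.33 (adjusted p = 0.0588), and it passed when the mouse entered as a block (1.17, adjusted p = 0.0492), without mouse 2 (1.58, adjusted p = 0.0425) and without the quercetin libraries of mouse 2 (1.79, adjusted p = 0.0127). Both rose in the average over LPS states, at 1.22 and 1.26. The part of these other cells in the result for miR-199a-3p was not tested.

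The members belong to a wider set of miRNAs linked to fibrosis, such as miR-21a, which is raised in it, and the miR-29 family, which represses collagen genes. Of 20 such miRNAs outside the group, 19 were tested. In quercetin plus LPS against LPS 3 rose and 0 fell by edgeR, namely miR-143-3p, miR-145a-5p and miR-133a-3p (2.18, adjusted p = 0.0191), where 8.63% of all miRNAs were called as higher and 14.3% as lower. The median log2 fold change was 0.04, against -0.13 over all miRNAs. With the mouse as a block 2 of 19 rose, without miR-143-3p. Without mouse 2, 1 of 19 rose (miR-133a-3p), and without its quercetin and quercetin plus LPS libraries 0 of 19 by edgeR, with 4 at an unadjusted p under 0.05. Averaged over both LPS states miR-143-3p, miR-145a-5p and miR-133a-3p rose, and miR-503-5p (-1.24), miR-322-5p (-0.52) and miR-29c-3p (-0.40) fell. These were 3 of 19 each way, not above the shares over all miRNAs of 16.2% higher and 20.1% lower. Of these falls 1 passed with RLE scaling (miR-503-5p) and 0 with upper quartile or library size scaling. Of the rises, 0 passed without mouse 2 (5 of 19 had an unadjusted p under 0.05 by edgeR), miR-133a-3p did not without the quercetin libraries of mouse 2, and miR-143-3p did not with the mouse as a block.

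The Dnm3os promoter is shown because Mir199a-2 and Mir214 lie in that transcript. The counts of miR-199a cannot be assigned to Mir199a-2, so how far its own products followed those of Mir214 was not measured. The sequence is from RefSeq (GRCm38.p6, chr1:162217373-162217672, plus strand, 250 bases before to 50 after the start), with the match to the CArG box, the consensus bound by serum response factor, in capitals.
Dnm3os promoter: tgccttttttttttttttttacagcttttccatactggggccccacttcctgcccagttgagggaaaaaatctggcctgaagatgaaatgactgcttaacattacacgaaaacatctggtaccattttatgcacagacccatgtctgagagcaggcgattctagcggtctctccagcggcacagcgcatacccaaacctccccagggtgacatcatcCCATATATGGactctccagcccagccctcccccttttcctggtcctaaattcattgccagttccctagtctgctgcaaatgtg
The match ends 23 bases before the annotated start. The consensus reads the same on both strands, and it was found in 1.63% of 32851 promoters of this length in the table. The motif was chosen after this sequence had been read, and a match is a description only.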

How the data were processed

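The authors deposited a table of raw counts for each mature miRNA, from 16 TruSeq small RNA libraries. Per the submitters' processing notes they used cutadapt and mm9; versions, aligner and counting rule are not given in the sources used here. The table holds no coordinates. Of its 1381 rows (1377 names), 4 names on 2 rows each were summed, 1 row with text among its counts was left out, and so were 4 rows whose counts looked exchanged between neighbours in libraries with against without quercetin, found by scanning 1378 neighbouring pairs. Tests used edgeR 4.0.16 (R 4.3.3): filterByExpr by group (568 miRNAs), TMM scaling, a quasi-likelihood fit of all 16 libraries, and Benjamini-Hochberg adjustment with a threshold of 0.05. Each SE is the log2 fold change over the square root of F. DESeq2 1.42.0, limma-voom (limma 3.58.1), other scalings, no filter and leaving out libraries were alternatives. On simulated quercetin plus LPS vs LPS counts of 557 miRNAs, 53.8% of log2 changes of 1, 86.4% of 2 and 100% of 3 were called, and 0.557% of unchanged ones. The members and lists were chosen with earlier results of these data known. The rule for named miRNAs took all members, the 8 most correlated with miR-199a-3p, any sharing a seed, and up to 6 per list plus those past the threshold. No libraries of a group were duplicates by a chi-square test. Samples are numbered by mouse and the series names 4 mice, so equal numbers were taken as the same animal. Deviations from group means correlated at a mean r of 0.14 over 24 same-mouse pairs (-0.47 to 0.65) and -0.04 over 72 others.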

Additional observations from a re-analysis of the deposited data

Results flagged for a closer look

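In the quercetin plus LPS group, the library of mouse 2 lay far from the other 3 in miR-199a-3p: the gap to the next library was 0.993 of the range of the group. It also did so in the summed share of the members, at 0.925 of the range. miR-199a-3p holds 87.1% of the counts of the members over all libraries, so these 2 flags are not independent. Both gaps are beyond Dixon's 95% limit for 4 samples, which chance passes in about 1 in 20 groups. There were 24 groups checked.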

How the results depend on the processing

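In quercetin plus LPS against LPS, 1 of the 3 tested members was called. The count was 2 with RLE, upper quartile or library size scaling, with identical names once, with only the groups compared and with the mouse as a replicate block, where miR-199a-5p was added. It was 3 by DESeq2, and 0 without mouse 2 or its quercetin libraries. With no filter all 5 members with counts of their own were tested and 3 called (miR-199a-3p, miR-199a-5p and miR-199b-5p). Leaving out 1 library gave 1 to 2 (2 without LPS 2 or quercetin plus LPS 1, 3 or 4). For quercetin averaged over both LPS states it was 2 with upper quartile scaling and DESeq2, 0 without mouse 2 or its quercetin libraries, and 0 to 2 without 1 library (0 without quercetin 2 or quercetin plus LPS 2; 2 without control 3, quercetin 1 or quercetin plus LPS 1 or 4). The replicate block changed no other call of a member.

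Directions that turned were those of values that had not passed, and the cause was not tested. For quercetin against control, miR-199a-5p was at 0.006 with RLE, 0.16 with upper quartile and 0.13 with library size scaling, 0.51 by limma-voom, 0.058 with the replicate block and 0.034 with identical names once, and -0.43 to 0.98 without 1 library. miR-199a-3p was at -0.29 without the quercetin libraries of mouse 2, -0.48 without mouse 2, and -0.25 to 1.13 without 1 library. For quercetin plus LPS against quercetin, miR-199a-3p was at -0.12 and miR-199a-5p at -0.021 without mouse 2. Without 1 library miR-199a-3p ran from -0.51 to 0.92, miR-199a-5p from -0.34 to 0.98 and miR-214-3p from -2.45 to 0.24, and the interaction of miR-214-3p from -0.27 to 2.38. With an offset of 5 counts the 3p to 5p ratio of miR-214 differed by -0.43 in LPS against control and by 0.20 in quercetin plus LPS against LPS. Without 1 library that ratio ran from -0.19 to 0.80 and from -0.97 to 0.11. The ratio of miR-199a ran from -0.47 to 0.34 in LPS against control, -0.054 to 0.59 in quercetin against control, -0.20 to 0.61 in quercetin plus LPS against LPS and -0.26 to 0.10 in quercetin plus LPS against quercetin. The summed share ran from -0.49 to 0.44 in quercetin plus LPS against quercetin. Over all miRNAs, calls ranged from 44 to 103 (90 as reported) in quercetin against control, 56 to 158 (130) in quercetin plus LPS against LPS and down to 116 (206) in the average. Scaling moved the median of all miRNAs in quercetin plus LPS against LPS from -0.13 to 0.15 with library size scaling, and in quercetin against control from -0.05 to 0.15 with upper quartile scaling. They ranged from 0 to 6 (3) in LPS against control and 2 to 7 (2) in quercetin plus LPS against quercetin. Leaving out mouse 2 or its quercetin libraries was chosen after seeing the data, as was leaving out control 3 with them. Low counts limit miR-214 and miR-199b-5p.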
